A study of Homo sapiens with 6 samples.

Results

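Genes for the proteins of the cytosolic ribosome were examined in a single list of poly(A) 3′-seq peaks from IMR-32 cells, a MYCN-amplified human neuroblastoma line. The genes were chosen by symbol alone. They were protein-coding genes whose whole name is RPL, RPS or RPLP and a number, optionally followed by A, X, L or digits, plus RPSA. Names with any other ending were left out. This gave 85 of 20046 protein-coding genes, 32 of the small ribosomal subunit and 53 of the large one, with 500 of the 200023 peaks of the list in their bodies or up to 4000 bp past their 3′ ends. The 6 libraries came from cells treated with the solvent DMSO (2 libraries), with THZ531 at 400 nM for 2 h (2 libraries) or with the same dose for 6 h (2 libraries). THZ531 covalently inhibits CDK12 and CDK13, kinases of RNA polymerase II, and the cells carried no other stated allele or agent. Peaks were called by the authors a single time, after pooling every sample (assumed here to be the 6 above), so no value below belongs to a library or a treatment. A comparison of DMSO and THZ531 was not possible, replicate error is lacking for every peak, and no test was made. Intervals are 95% intervals over genes or peaks and cover counting error only.

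Ribosomal proteins surround and stabilize the ribosomal RNAs, and each is needed in about the same amount as the others. Their genes are short, are transcribed at high rates in growing cells, and give mRNAs with brief untranslated regions whose translation is set by a 5′ terminal oligopyrimidine (TOP) sequence. Most such mRNAs end at a poly(A) site, where the nascent transcript is cut a little downstream of a signal hexamer, typically AATAAA in the DNA, and receives a poly(A) tail. The genome also holds many processed copies of these mRNAs, inserted as pseudogenes.

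A read in this assay starts at the junction of transcript and tail. The height of a peak is given as reads at the summit, the number of extended reads over its highest point. The peak caller keeps 1 read per start position and strand by default, so a height counts distinct starts and does not measure the amount of an mRNA. As reads were extended to 100 bp, a height cannot then exceed 100 on 1 strand or 200 over both. Ratios between tall peaks are drawn toward 1 by this ceiling and do not measure the relative use of sites. Peaks have no strand. A peak with −log10 q of at least 5, the cutoff of the study, was put in a class from the gene's own annotation: transcript end (summit 200 bp before to 600 bp after an annotated end), exon, intron, or past the end (600 to 4000 bp past the last annotated end). The main 3′ end peak of a gene is its transcript-end peak with the most reads, and a gene with such a peak is called detected.

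The sequences below show the poly(A) signals at the annotated 3′ ends nearest the main peaks, which need not be the signals of those peaks. Each is 30 bases long, in the direction of transcription, from GRCh38, and ends at the annotated transcript end nearest the peak, with the hexamer in capitals. The peak's 3′ edge lay from 0 bp (RPL5 and RPL11) to 971 bp (RPL38) away from that end. In the 100 bp before the peak edge, RPL18 and RPL38 had none of the 12 hexamers searched. RPL27A had TATAAA there and RPL31 had AGTAAA, and the other members printed had the same hexamer as shown. Most members had AATAAA, and the following are reference members of both subunits and the ribosomal stalk.
RPL5 (chr1:92841892-92841921, plus strand): agatatagatAATAAActtatgaacagcaa
RPL11 (chr1:23696389-23696418, plus strand): caaaagagcAATAAAaagttttcagtgaaa
RPL10 (chrX:154400888-154400917, plus strand): caccAATAAAttctacttcctgtccaccta
RPLP1 (chr15:69455518-69455547, plus strand): taacatgttcAATAAAaagctgaactttac
RPLP2 (chr11:812851-812880, plus strand): gcaAATAAAgcctttttacacatctctcaa
RPS3 (chr11:75405663-75405692, plus strand): cctttAATAAAattttgtacaaagacacaa
RPS6 (chr9:19376255-19376284, minus strand): gagtaacaAATAAAtaagatcagactctga
RPS14 (chr5:150444233-150444262, minus strand): tgttAATAAAttgccttcatgtaaactgtt
RPS19 (chr19:41871387-41871416, plus strand): tgctgggttAATAAAttgcctcattcgtaa
These 6 members had ATTAAA, the commonest variant of the signal, and no AATAAA in the last 100 bases.
RPL6 (chr12:112405189-112405218, minus strand): ttaagaacctaATTAAAtagctgactacat
RPL18 (chr19:48615328-48615357, minus strand): ctcttATTAAAaagatttttgctgacagtg
RPL27 (chr17:43002930-43002959, plus strand): tttgatcATTAAAaattataaagaaaaaaa
RPL27A (chr11:8685819-8685848, plus strand): ggagtttcATTAAAtgctaactactttttc
RPL31 (chr2:101007238-101007267, plus strand): aagtttcttATTAAAaaacttggaagccaa
RPL36 (chr19:5691846-5691875, plus strand): ctttaatcATTAAAtagcttctatgccaca
These 4 had another variant and neither AATAAA nor ATTAAA in the last 100 bases.
RPS16 (chr19:39433137-39433166, minus strand): gacagaaatcAGTAAAcatcctggacctat
RPL7A (chr9:133351397-133351426, plus strand): aataattgaaatAATACAaattttccttca
RPL23A (chr17:28723904-28723933, plus strand): tgAATATAtatatatatatatcttttcacc
RPL38 (chr17:74210626-74210655, plus strand): tggcatCATAAAatctgtcttcatacccga
In these 19 sequences the hexamer began 18 to 28 bases before the annotated end.

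Nearly every member was detected. A transcript-end peak was found for 82 of 85 members (96.5%, Wilson interval 90.1 to 98.8), against 64.0% of all protein-coding genes. All 77 members other than the 8 paralogs had one. So did all 32 genes of the small subunit, which include the paralog RPS27L. The 3 members without one were the paralogs RPL10L, RPL3L and RPL36AL. RPL10L, an intronless relative of RPL10 known for its use in the testis, had no peak at all. RPL3L, the striated muscle form of RPL3, had 1 exonic peak with 11 reads. RPL36AL had an exonic peak of 36 reads whose 3′ edge lay 166 bp before its annotated end but whose summit lay more than 200 bp before it, outside the window, and peaks of 48 and 40 reads past the end. The other 5 paralogs were detected, with 85 reads at RPL7L1, 69 at RPL22L1, 47 at RPL26L1, 43 at RPS27L and 18 at RPL39L. All 8 markers of IMR-32 had a transcript-end peak (19 reads at DBH to 100 at MYCN), while PTPRC, ALB and PECAM1 had none and COL1A1, a marker of other cells, had 3, the tallest with 15 reads.

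The members stood out for the density of their reads. The main peak had a median of 54.5 reads (interval 51 to 60, range 18 to 90) over 82 members, against 25 over 12834 detected protein-coding genes. At least 50 reads were found at 54 members (65.9%, 55.1 to 75.2), against 9.02% of all detected genes. The 10 kb around the main summit held a median of 722 reads (623 to 781) at members and 140 at all detected genes, and at least 500 reads at 66 members (80.5%) against 6.13% of all. Among the 77 members other than the paralogs, this number ran from 259 at RPL11 to 1566 at RPL13. It counts all reads of the interval, those of neighbouring genes included. RPL39L, with 43 reads in its 10 kb, was the member with the fewest.

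The fold enrichment sets a peak against a background taken from these same 10 kb, and the tall peaks of members did not have a high fold. The median fold of the main peak was 6.68 (6.23 to 7.72) at members and 9.78 at all detected genes. In 454 other genes with 525 to 878 reads in 10 kb, the range of the middle 50% of members, the median was 47 reads (45 to 50) and the fold 6.53 (6.34 to 6.76). Both values lie much nearer to the members than those of all genes. These 454 genes were chosen by the same background that divides the fold, so a like fold is partly built in.

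The tallest main peaks belonged to genes of both subunits. RPL41, which encodes the shortest protein of the ribosome, and RPS27A, whose protein is made as a fusion with ubiquitin, had 90 reads each. RPS2 had 88 and RPL35A had 85. The summits of RPS2 and RPL35A lay inside NDUFB10 and IQCG, genes of the opposite strand. Those of RPL41 and RPS27A lay in no other gene. Of the members' 172 transcript-end peaks, 54 (31.4%, 24.9 to 38.7) lay in another gene. A gene of the opposite strand held 48 (27.9%, 21.7 to 35.0). Peaks without strand cannot be given to either gene there. The lowest main peaks were RPL39L with 18, RPL18 with 32, RPS26 with 34, and RPL10A and RPS9 with 35 each. Median height was 55.5 reads (47 to 67) in the small subunit and 54 (49 to 66) in the large one, with intervals that overlap almost fully. The 3 stalk genes, which encode the acidic proteins that recruit elongation factors and their anchor, had 74 reads (RPLP0), 77 (RPLP1) and 48 (RPLP2). RPL5 and RPL11, which form a particle with 5S RNA and bind MDM2, had 45 and 46. RPS19 and RPS14, both linked to failures of red cell formation, had 52 and 61, RPS3 had 52, RPS6 (the target of S6 kinase) had 59, RPL10 had 40 and RPSA had 39. Of these 8, RPS14 and RPS6 lay above the median of the members and the others below it.

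**Figure D1:**
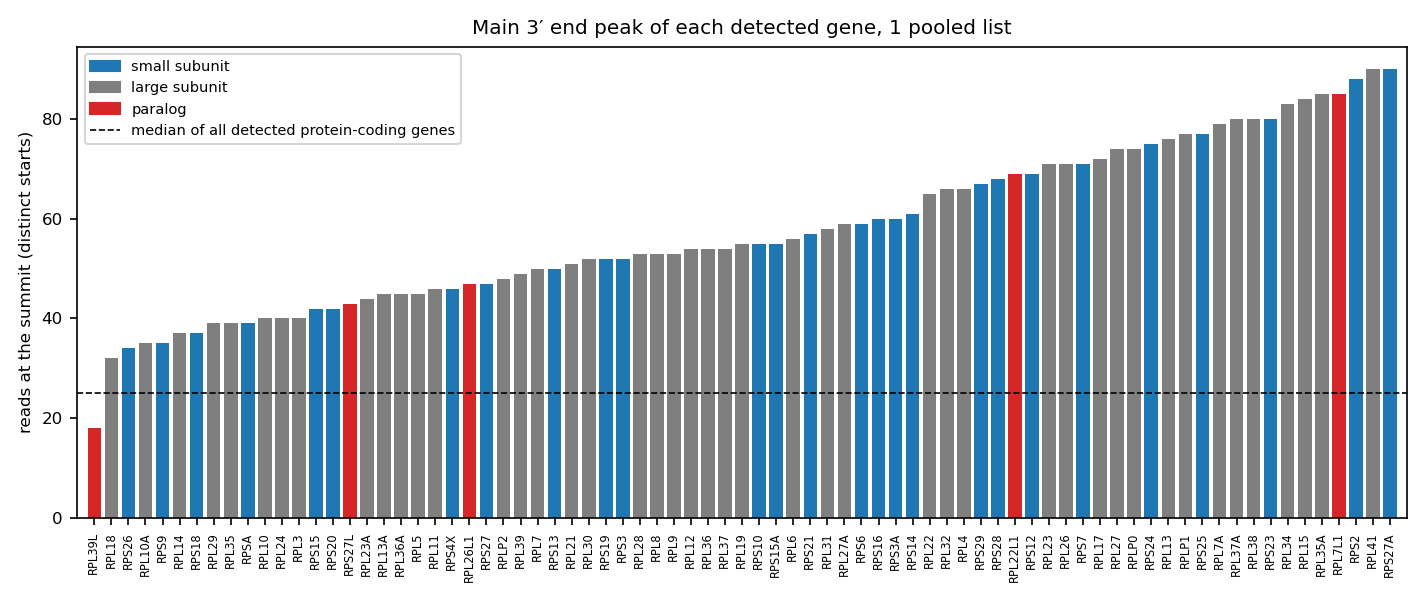
Each bar is the reads at the summit (distinct starts, linear axis from 0) of the main 3′ end peak of 1 of 77 detected genes, coloured by subunit or as a paralog; there is 1 pooled list and so no error bar. All but RPL39L (18 reads) stand above the dashed line, the median of 25 reads over all detected protein-coding genes.

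The untranslated region behind these ends was short. Taking for each gene the coding transcript that ends nearest the main peak, the 3′ UTR had a median of 59.5 bases (52 to 79) at members, 294 (234 to 430) at mitochondrial ribosomal protein genes and 821 (799 to 846) at all detected genes. It was under 100 bases at 56 of 82 members (68.3%, 57.6 to 77.4), against 7.13% of all detected genes and 9.17% of the other genes of like read density. RPS12 had the shortest, 22 bases, followed by RPS6 with 23 and RPL13A with 28. None of the 5 detected paralogs had a 3′ UTR under 100 bases, with 116 bases at RPL22L1, 197 at RPL39L, 230 at RPL26L1, 2772 at RPL7L1 and 5783 at RPS27L. At RPS27L the main peak ended 11 bp before the end of that long annotated transcript.

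**Figure D2:**
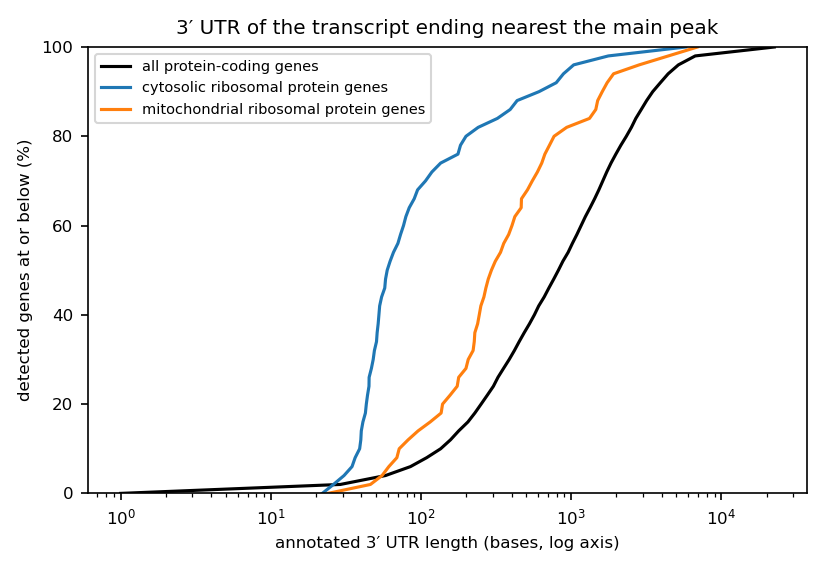
Cumulative share of detected genes (vertical axis, %) by annotated 3′ UTR length in bases (log axis, lengths of 0 drawn at 1) for the 82 members, 76 mitochondrial ribosomal protein genes and all detected protein-coding genes. The members' line lies far to the left, with a median of 59.5 bases against 294 and 821.

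The 3′ edge of the main peak, where reads begin, lay close to annotation. Its median distance from the nearest annotated end was 15.5 bp (11 to 48), farther than the 9 bp (8 to 9) of all detected genes. At the other genes of like read density the median was 57 bp (41 to 82). At 46 of 82 members (56.1%, 45.3 to 66.3) the edge was within 25 bp, against 62.1% of all detected genes, and at 26 members within 5 bp. Among others, the main peaks of RPL11, RPL5, RPS10, RPS15A and RPSA ended on the annotated base. The upper quartile of the distance was 126 bp at members and 90 bp at all detected genes. It was 248 bp at the other genes of like read density. An edge over 100 bp away was found at 22 members, and 18 of these peaks were at least 250 bp wide. Among the farthest were RPL38 (971 bp, in a peak 1289 bp wide), RPS18 (416 bp, width 626 bp) and RPL4 (359 bp, width 691 bp). Median width was 196 bp (173 to 247) at members, 145 bp at all detected genes and 214 bp (195 to 228) at the other genes of like read density.

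Width matters for finding the poly(A) signal, which was searched as 12 hexamers on the gene's strand only. In the 100 bp that end at the 3′ edge, AATAAA or ATTAAA was present at 58 of 82 members (70.7%, 60.1 to 79.5), against 69.3% of all detected genes. The 24 without included RPL10A, RPL18, RPL23A, RPL27A, RPL31, RPL35, RPL37A, RPL38, RPL4, RPL41, RPL7, RPL7A, RPLP0, RPS16, RPS18, RPS2, RPS20, RPS27, RPS27A, RPS3A, RPS4X and RPS9. Of the 24, 19 had an edge more than 25 bp past the annotated end, and 11 had another of the 12 hexamers. When the 100 bp ended at the annotated end nearest the peak, a choice made after seeing the data, the share was 89.0% (80.4 to 94.1) at members and 74.6% at all detected genes. At canonical transcript ends, however, the shares were 81.7% (72.0 to 88.6) and 83.7%. Among the other genes of like read density, the share was 49.3% (44.8 to 53.9) at the peak edge and 71.4% (67.0 to 75.3) at the nearest annotated end. The excess over all genes was thus seen only at the nearest annotated end, of the 3 places searched.

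In the 100 bp before the annotated end nearest the main peak, AATAAA was present at 67 of 82 members. It was counted first wherever it lay in this window, and ATTAAA only where AATAAA was absent, at 6 members. RPL26 and RPL35A, counted with AATAAA 53 and 60 bases before the end, also had ATTAAA 25 and 23 bases before it. Which hexamer was used was not tested. RPS16 had AGTAAA, RPL7A AATACA, RPL23A AATATA, RPL38 CATAAA and RPL41 TATAAA. No hexamer was found at the end nearest the main peak of 4 members, among them RPL7, RPS27A and RPS4X, each of which had a rarer variant at its canonical end. The 67 AATAAA began a median of 25 bases before the end, and 51 of them 15 to 30 bases before it. No main peak of a member had at least 18 A in 25 bases within 50 bp downstream (0 of 82, upper bound 4.48%), the mark of priming inside a transcript, against 2.73% of all detected genes.

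Most members had more than 1 peak. In all, 424 of their 500 peaks passed the cutoff, with a median of 5 per detected member and up to 14 at RPL37A. The peaks nearest the cutoff were an exonic peak of RPL31 with 17 reads and −log10 q of 4.98 just outside, and a peak past the end of RPL19 with 26 reads and 5.02 just inside. Transcript ends held 172 peaks (40.6%, 36.0 to 45.3), the stretch past the end 110 (25.9%), introns 83 (19.6%, 16.1 to 23.6) and exons 59 (13.9%, 10.9 to 17.5). Over all protein-coding genes, 20.2% were at transcript ends, 5.51% past the end, 64.0% in introns and 10.3% in exons. These shares depend on length, with medians of 5548 bp at detected members and 35028 bp at all detected genes. The transcript-end windows, which take precedence over exon and intron, covered a median of 29.7% of a member's body. The shares were not compared at like length. With the canonical transcript as the only annotation, the share of members' peaks at transcript ends was 19.6%, so many end peaks belonged to other annotated transcripts.

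**Figure D3:**
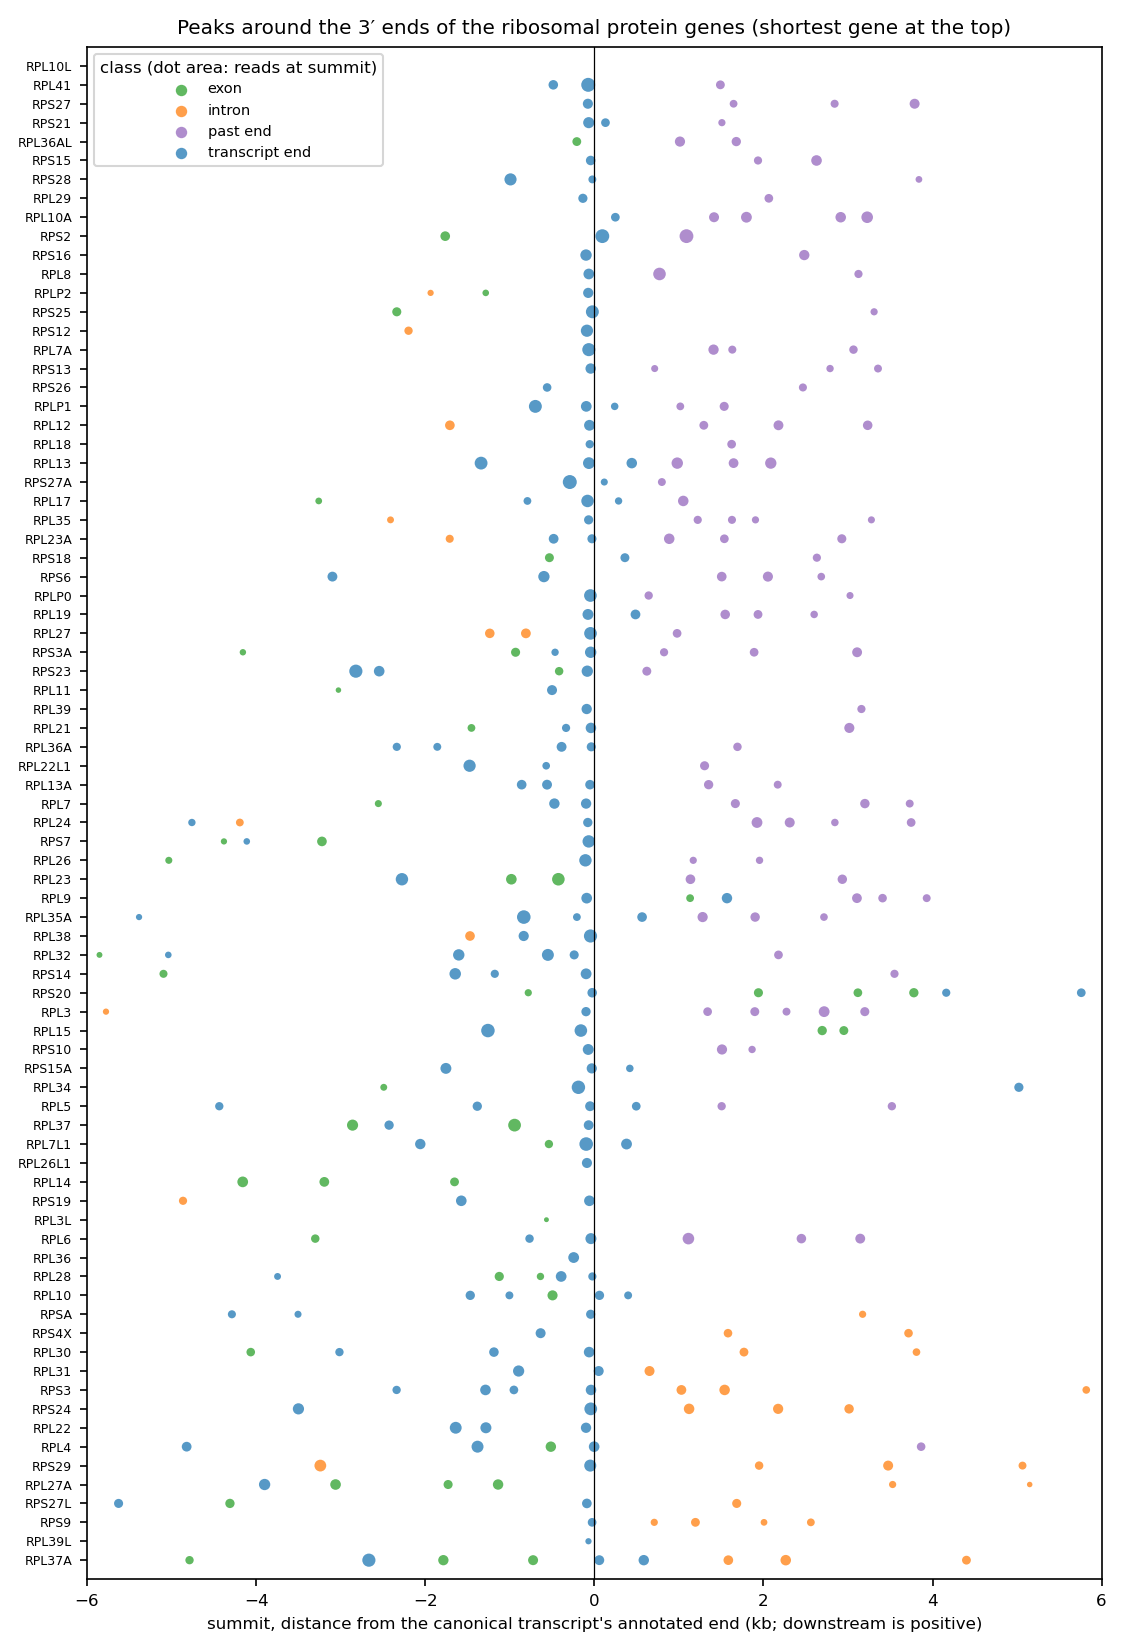
Each row is 1 of 80 genes, ordered by length with the shortest at the top, and each dot a peak with −log10 q of at least 5, placed by the distance of its summit from the annotated end of the canonical transcript (kb, downstream positive, only 6 kb either side drawn). Dot area grows with the reads at the summit and colour gives the class; a column of transcript-end peaks stands at 0, and the peaks past the end are spread from 0.6 to 4 kb.

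Several members had peaks at more than 1 annotated end. At least 2 transcript-end peaks were found at 49 members and at least 4 at 12. The median was 2 transcript-end peaks per detected gene, both for the members and for all protein-coding genes. The second of them had a median of 0.769 times the reads of the main peak, and at 21 members at least 80% of it. The ceiling on heights limits these ratios, which do not give the relative use of the ends. RPS19 had 52 reads at each of its 2 end peaks, chr19:41871291-41871412 and chr19:41872801-41872944, each with AATAAA in the 100 bp before its edge. RPL5 had 5 end peaks with 45, 40, 35, 32 and 24 reads, all inside DIPK1A, a gene of the opposite strand.

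In 65 of 82 members, a share not taken over all detected genes, the main 3′ end was the tallest peak of the gene, or tied for it. Of the other 17, 10 had their tallest peak past the end, 4 in an exon and 3 in an intron. Of the exonic ones, RPL37 had 75 reads against 54, RPL23 73 against 71, RPL14 53 against 37 and RPL10 47 against 40. That of RPL10 lay inside DNASE1L1, a gene of the opposite strand. An exonic peak was present at 35 detected members (42.7%, 32.5 to 53.5), against 48.6% of all. AATAAA or ATTAAA was found at 9 of 59 exonic peaks of members (15.3%, 8.24 to 26.5), against 52.9% (45.5 to 60.2) of their transcript-end peaks and 5238 of 13773 exonic peaks of all genes. Any of the 12 hexamers was found at 54.2% of the members' exonic peaks (41.7 to 66.3), against 68.6% of exonic peaks of all genes.

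Intronic peaks were found in fewer members than in genes at large. They occurred in 31 of 82 detected members (37.8%, 28.1 to 48.6), against 77.9% of all detected genes. Length moves with this value: detected members had a median length of 5548 bp and all detected genes 35028 bp. In 1779 other genes of 3764 to 10860 bp, the range of the middle 50% of members, the share was 32.9% (30.7 to 35.1), within the interval of the members. Per 100 kb of gene, members had 9.58 intronic peaks, those genes 6.62 and all detected genes 7.89.

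The 83 intronic peaks were concentrated in a few long members, and 30 of them lay in 5 genes. RPS9 had 9, RPL37A had 6, and RPL27A, RPL6 and RPS29 had 5 each. RPL37A (80356 bp), RPL39L (59961 bp) and RPS9 (48195 bp) are the longest members as annotated, whereas RPL10L (772 bp), RPL41 (1378 bp) and RPS27 (1394 bp) are the shortest. Of the 83, 44 lay downstream of the canonical transcript, in introns of longer annotated forms, and 19 upstream of it. Within the canonical transcript there were 20, of which 5 were in its first intron. All 9 of RPS9 and all 6 of RPL37A were downstream. RPS19 differed, with 4 intronic peaks of 29 to 47 reads inside its canonical transcript.

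The tallest intronic peaks were 2 at RPL28, with 81 and 64 reads against 53 at its main end. Both summits lay inside UBE2S, a gene of the opposite strand, and peaks without strand cannot be given to either gene. In total 21 of the 83 intronic peaks (25.3%, 17.2 to 35.6) had a summit in a gene of the opposite strand. Any of the 12 hexamers was found at 28 (33.7%, 24.5 to 44.4) of them, against 57.0% of intronic peaks of all genes. A stretch this rich in A followed 12 of them (14.5%, 8.47 to 23.6), against 26.9%. Members of this family host many small nucleolar RNAs (snoRNAs) in their introns: 28 members held 60 annotated snoRNAs, 22 intronic peaks lay in such hosts, and 3 of these within 200 bp of the 3′ end of a snoRNA. Hosts were not counted over all genes.

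**Figure D4:**
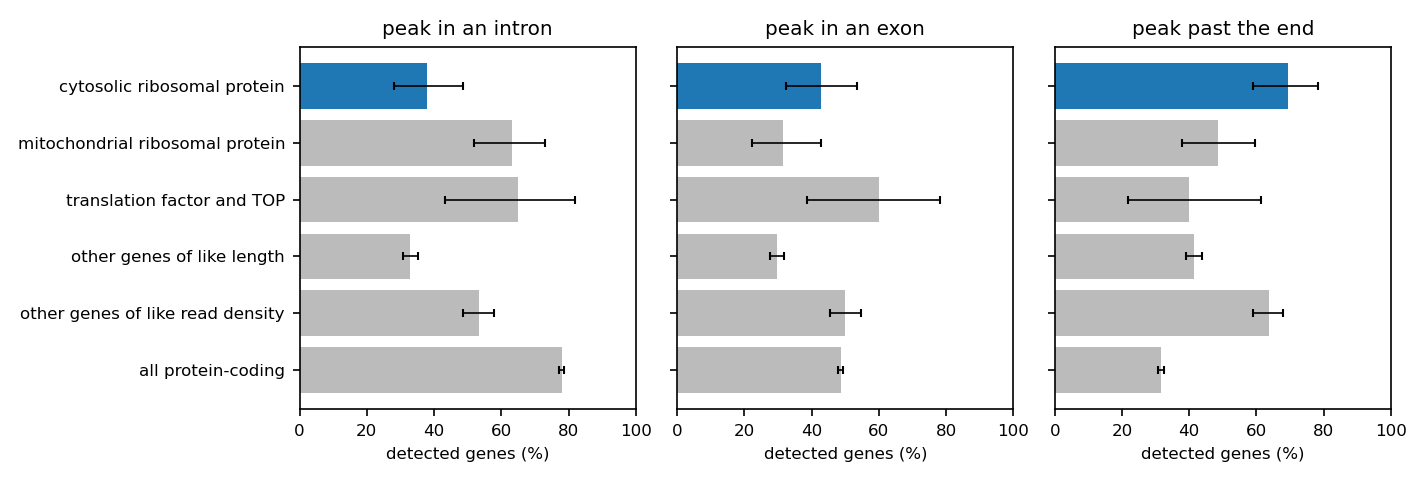
Share of detected genes (%, axes from 0 to 100) with a peak in an intron, in an exon or 600 to 4000 bp past the last annotated end, with 95% Wilson intervals, for the members (blue) and 5 sets of other genes (grey). The members' share lies closest to genes of like length for intronic peaks (37.8% and 32.9%) and to genes of like read density for peaks past the end (69.5% and 63.7%).

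Peaks past the end were common. They were found at 57 of 82 detected members (69.5%, 58.9 to 78.4), against 31.6% of all detected genes and 41.4% (39.1 to 43.7) of other genes of like length. In the other genes of like read density the share was 63.7% (59.1 to 67.9), so read density moves with it. Where no other protein-coding or lncRNA gene lay in this stretch, the share was 17 of 31 members (54.8%, 37.8 to 70.8), 19.1% of all detected genes and 53.1% (43.9 to 62.0) of those of like read density. The 110 peaks were spread over the whole stretch, with 12 below 1 kb, 47 at 1 to 2 kb, 28 at 2 to 3 kb and 23 at 3 to 4 kb. Of them, 60 had their summit in another gene (54.5%, 45.2 to 63.5), and the reads of the 2 genes cannot be told apart there.

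Some of these peaks were as tall as the annotated end. The tallest one had a median of 0.721 times the reads of the main peak over the 57 members, a ratio limited by the ceiling on heights. It was higher than the main peak at 10 and equal at 1, RPS2, with 88 reads each, a count not made over all genes. Among these, RPL10A had 62 reads past the end against 35, RPL8 73 against 53, RPL24 and RPL3 54 against 40, RPS15 52 against 42, RPL23A 51 against 44, RPL6 62 against 56 and RPL18 35 against 32. In RPL13, peaks of 60 and 59 reads followed a main peak of 76. RPL6, RPL3 and RPL13 had no other gene in the stretch. The peak of RPS2 (chr16:1960513-1961650) lay in NDUFB10. Among the 10 highest peaks past the end, that of RPL8 was the widest (1672 bp).

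The peaks past the end were lower and wider than those at the ends. Their median was 35 reads (32 to 38) and 208 bp wide (186 to 268), against 45 reads (42 to 50) and 175 bp (156 to 195) at the members' transcript ends. AATAAA or ATTAAA was found at 22 of 110 (20%, 13.6 to 28.4), against 52.9% of their transcript-end peaks and 28.9% of past-end peaks of all genes. An A-rich stretch lay downstream of 11 (10%, 5.68 to 17.0), against 8.04%. No such peak was found at 25 detected members, among them RPL11, RPL14, RPL34, RPL37, RPS7, RPS12 and RPS29, all with a clear stretch there.

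**Figure D5:**
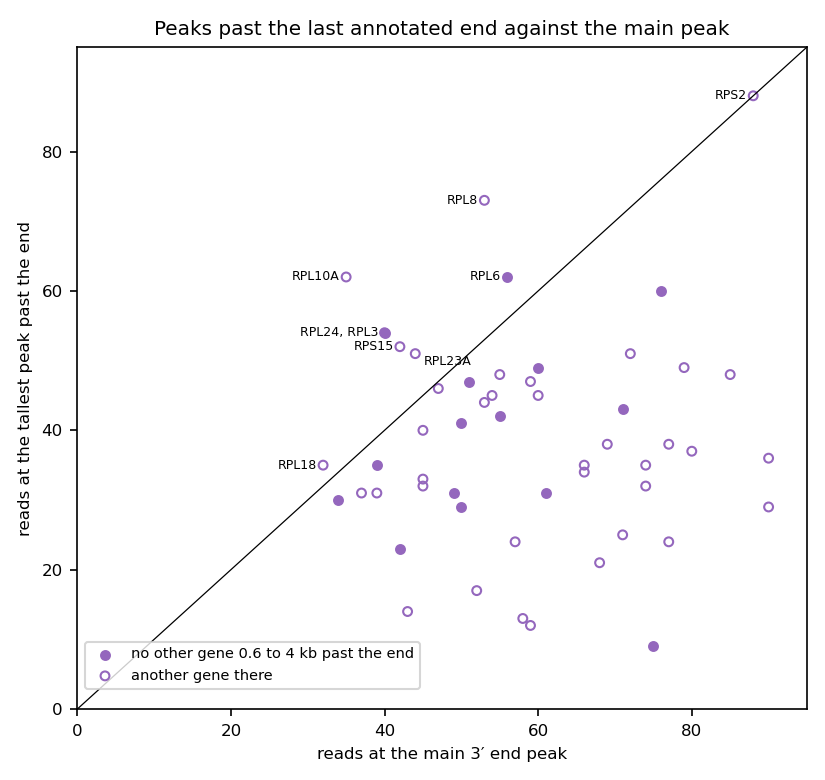
Reads at the tallest peak past the last annotated end (vertical axis) against reads at the main 3′ end peak (horizontal axis) for 53 detected members that have both, on linear axes, with the line of equal height. The 9 named genes lie on or above the line; filled dots have no other gene 0.6 to 4 kb past the end and open ones do.

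Copies of the mRNAs limit what the heights above can be said to count. For 41 of 82 detected members (50%, 39.4 to 60.6), the last 100 bases of the mRNA matched another place in the genome at 95 bases or more. This was so for 5.31% of every 25th other detected gene (27 of 508), for 5 of 76 mitochondrial ribosomal protein genes (6.58%, 2.84 to 14.5) and for 7 of 20 translation factor and other TOP mRNA genes (35%, 18.1 to 56.7). The members had 157 such copies, of which 150 overlapped an annotated pseudogene. The members with the highest numbers of copies were RPL7A (22), RPS26 (19), RPL21 (17) and RPL36A (13), while 28 members had 1 to 3. A peak lay within 100 bp of 109 of the 157 copies, 19 of them for RPL7A, 9 for RPS26, 6 for RPL21 and 5 for RPL36A. This count was not made for copies of other genes. The mapping retained any read with no more than 20 placements. Whether reads with several placements reached the peak caller is not stated. How far reads of a gene and of its copies are mixed in this list is therefore unknown. A copy matching all 100 bases was found for 9.76% of members. The median height of the main peak was 55 reads in the 41 members without a copy and 53 in the 41 with one.

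The comparison lists showed which of these features belonged to translation genes in general. Mitochondrial ribosomal protein genes, whose products work in a separate ribosome, were detected as often (76 of 78, 97.4%, 91.1 to 99.3), with MRPL14 and MRPL40 as the exceptions. Their main peaks had a median of 35 reads (29 to 40) and 282 reads in 10 kb (224 to 339), below the members in both. They more often had an intronic peak (63.2%, 51.9 to 73.1) and less often a peak past the end (48.7%, 37.8 to 59.7). No test was made of either difference. Their genes were longer, with a median of 11940 bp against 5548 bp at detected members. The intronic shares were not compared at like length. Where the stretch past the end held no other gene, a peak was found there in 50% (33.2 to 66.8), against 54.8% (37.8 to 70.8) of members. All 20 translation factor and other TOP mRNA genes were detected, with a median of 47.5 reads (40 to 58) and 370 in 10 kb (186 to 547), from 19 at IPO7 to 83 at PABPC1, the cytoplasmic poly(A)-binding protein. The 3 ribosome-linked genes outside the naming rule were detected too: RACK1, a scaffold on the small subunit, had 62 reads, and FAU, the source of eS30, had 38.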

How the data were processed

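Poly(A) 3′-seq libraries (QuantSeq 3′ mRNA REV) were mapped by the authors with STAR (version 2.5.1b) to GRCh38, keeping reads with up to 20 placements, and peaks were called by the authors with MACS2 (version 2.1.1) on the merged reads with no control library. The deposited list gives the fold enrichment at the summit (a ratio of pileup plus 1 to local background plus 1), its −log10 p and −log10 q, and the offset of the summit. It holds no library totals, so depth per library is unknown.

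Reads at the summit were solved from the deposited fold and −log10 p, the Poisson tail of the pileup (largest misfit 1.72e-04). In simulated peaks, 99.98% of 20000 pileups were recovered. The background times 100 gives reads in 10000 bp. Annotation was GENCODE 44, whereas the study used an earlier release. Peaks of −log10 q of at least 5 were kept. Hexamers were searched in 100 bp windows, A stretches (18 of 25 bases) in 50 bp. Copies were sought with blastn 2.17.0 (at least 95 of 100 bases). Python 3.11.15 with numpy 2.4.6, pandas 2.3.3, scipy 1.17.1 and pysam 0.24.0 was used. Shares have Wilson intervals and medians order-statistic intervals.

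The members, comparison lists, naming rule and alternatives were chosen with earlier results of these data known. Named members were those without a transcript-end peak, the 5 highest and 5 lowest main peaks, the 5 with most intronic peaks, the 5 with the farthest edges, those without AATAAA or ATTAAA, the 10 highest peaks past the end, the 3 longest, 3 shortest and 3 most copied genes, the paralogs, the stalk genes and fixed reference genes. Other members were named after their values were seen, as examples of a count or the extremes of a range. A few genes that this rule would name are not reported here by name and are not drawn in plots of single genes; counts and medians include them.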

Additional observations from a re-analysis of the deposited data

How the results depend on the processing

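The list is 1 pool without library values, so no sample could be left out. No paired analysis was possible because the columns carry no replicate. Over the 10 summary values and their alternatives, 74 values were computed, of which 53 stayed within the 95% interval of the value in the text and 21 did not. The strictness of the cutoff mattered most. With −log10 q of at least 20, members with a transcript-end peak fell to 67.1%, the share of peaks at transcript ends was 73.8% and in introns 4.85%, members with an intronic peak were 4.71%, the median main peak had 65 reads and members with a peak past the end were 14.1%. Fewer peaks were counted there by construction.

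With the canonical transcript only, 84.7% of members had a transcript-end peak, 19.6% of peaks were at transcript ends and 12.5% in introns. A window of 100 bp either side of the ends gave 30.2% of peaks at transcript ends. The 25 members with no other gene in their body or 4 kb past it had a peak past the end in 56% of cases, and counting only 600 to 2000 bp past the end gave 49.4%. AATAAA or ATTAAA was found at 13.4% of main peaks in 100 bp ending at the summit, at 52.4% in 50 bp ending at the 3′ edge, and at 89.0% in 100 bp ending at the annotated end, an alternative chosen after seeing the data. Leaving out the paralogs, another one chosen then, gave a transcript-end peak at 100% of the remaining members. Using only transcripts with a complete 3′ end, the last such alternative, moved no value out of its interval. A-rich stretches at intronic peaks ranged from 0% of 5 peaks to 23.8% of 21. The first value is for −log10 q of at least 20 (interval 0 to 43.4), the second for members with no other gene (10.6 to 45.1). At 22 of 25 bases the share was 7.23%. The share of members with a copy was 65.9% at 90 of 100 matching bases and 9.76% at 100 of 100.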
